A study of Mus musculus with 8 samples.

Results

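Sphingosine-1-phosphate (S1P) and lysophosphatidic acid (LPA) are lysophospholipids that act on cells through G protein-coupled receptors. Their receptor genes were followed in cells sorted from tumor-bearing mouse lungs, together with Enpp2, which encodes autotaxin, the secreted enzyme that makes LPA from lysophosphatidylcholine. The 10 genes were taken by symbol from the 27179 genes of the count table: the S1P receptors S1pr1, S1pr2 and S1pr3, the LPA receptors Lpar1 to Lpar6, and Enpp2. All 10 were present, and 9 passed the filter on low counts, Lpar4 being the exception.

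S1P is made inside cells by sphingosine kinases, exported by transporters such as Spns2, and kept high in blood and low in tissue. S1pr1 is the classical endothelial receptor, couples to Gi and is known for closing the vessel barrier, while S1pr2 and S1pr3 also couple to G12/13 and Gq. LPA is made outside cells, largely by autotaxin, and is removed by lipid phosphate phosphatases. Lpar1, Lpar2 and Lpar3 belong to the same EDG receptor family as the S1P receptors, whereas Lpar4, Lpar5 and Lpar6 are closer to purinergic P2Y receptors. In lung, Lpar1 is known for its role in fibroblasts and fibrosis.

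The cells came from lungs of C57BL/6 mice (C57BL/6J in the study's methods) with an Eml4-Alk rearrangement, which the labels call a translocation. The age of the mice is taken as 18 to 22 weeks, which the methods state for the age-matched healthy controls. Tumors had been induced 11 to 12 weeks before with an adenovirus that carries Cas9 and guide RNAs. All mice had received 4.5 nmol of the protease-activated probe QZ1-(PEG2K) intravenously 2 h before the lungs were taken. Viable CD45-, CD11b- cells were sorted by probe signal into a QZ1-hi (labeled QZ+) and a QZ1-lo (labeled QZ-) population, with 4 libraries of each from at least 100000 cells. Both populations share genotype, tumor and probe, no healthy or uninjected lung is part of the comparison, and the purity of the sorted fractions was not assessed by the study. Tumors and surrounding tissue were both kept for dissociation, so that a population may hold cells of both. The labels do not say whether libraries came from separate mice and give no number that ties libraries of the 2 populations to a mouse.

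The libraries held 18380918 to 26847938 counts in total, and mitochondrial and ribosomal RNA genes took up 43.7 to 65.6% of them in QZ1-hi and 34.0 to 53.2% in QZ1-lo. Removing those genes changed no call of a member. A level of 3 counts, taken as the floor, lay between 0.0894 and 0.179 CPM (counts per 1000000 after TMM scaling). Such floors cover counting error only, since the counts are of reads and the sources used here describe no molecular identifiers. The populations differed in their cell makeup. All 12 endothelial markers, 5 of 6 lymphatic, 8 of 9 fibroblast, 4 of 4 mesothelial, 4 of 8 pericyte and 4 of 5 platelet markers were called higher in QZ1-hi, and 10 of 10 epithelial and 5 of 5 ciliated markers lower. Of 5 smooth muscle markers 2 were higher and 1 lower, of 6 alveolar type 2 markers 2 were higher, and of the 10 leukocyte and 4 red blood cell markers tested none passed. Over all genes tested, 9.88% were called higher and 8.21% lower, so that a short list without a call says little. The leukocyte list summed to 2167 to 6428 CPM over the 8 libraries, although CD45+ and CD11b+ cells were to be left out. Lyz2 alone averaged 3600 CPM in QZ1-hi and 2534 CPM in QZ1-lo, whereas Ptprc, the CD45 gene, averaged 131 and 125 CPM. The sum is therefore no measure of leukocyte number. The red cell list summed to 130.5 to 3097 CPM. In such bulk samples, fewer cells of a type and less RNA per cell cannot be told apart.

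Among the S1P receptors, S1pr1 and S1pr3 were higher in QZ1-hi and S1pr2 differed by less than the spread between libraries. S1pr1 (Entrez Gene 13609, chr3:115710433-115715072, minus strand, mm10) had 134, 61.8, 179.5 and 79.8 CPM in QZ1-hi replicates 1 to 4. In QZ1-lo it had 9.63, 13.8, 30.6 and 8.84 CPM. The 2 populations did not overlap, and QZ1-lo replicate 3, the highest of its group, also had the highest endothelial signal of that group. Its 12 endothelial markers summed to 425 CPM, where the other 3 of that group had 115 to 190 CPM and 1412 to 3142 CPM in QZ1-hi. Their part in the S1pr1 difference was not tested beyond the ratio given further on. The log2 fold change of QZ1-hi over QZ1-lo (log2FC) was 2.86 for S1pr1 (SE 0.44, adjusted p = 0.00122, edgeR quasi-likelihood test with Benjamini-Hochberg adjustment over 15583 genes), a 7.24-fold difference.

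S1pr3 (Entrez Gene 13610, chr13:51408639-51422797, plus strand) was a lower-count gene whose call rested on a single library. It had 29.03 CPM in QZ1-hi replicate 1 and 8.54, 4.34 and 5.54 CPM in replicates 2 to 4. QZ1-lo had 3.04, 2.81, 1.99 and 0.819 CPM. The populations did not overlap, with a log2FC of 2.45 (SE 0.61, adjusted p = 0.0168, edgeR). Without QZ1-hi replicate 1 the log2FC was 1.501 and the adjusted p 0.0526 (edgeR), above the threshold of 0.05. The pericyte list summed to 105.5 CPM in that library, to 111 to 214 CPM in the other QZ1-hi libraries and to 10.03 to 36.3 CPM in QZ1-lo, and its part in the S1pr3 difference was not tested. Of that list, Cd248 averaged 75.6 CPM and Pdgfrb 27.9 CPM in QZ1-hi, and 4 of the 8 markers were not called. The QZ1-hi sums thus rest largely on few markers and are no measure of pericyte number.

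S1pr2 (Entrez Gene 14739, chr9:20962361-20976781, minus strand) was the steadiest of the receptor genes. It had 11.5, 12.4, 10.2 and 10.1 CPM in QZ1-hi and 11.4, 10.1, 14.04 and 9.58 CPM in QZ1-lo, with the groups fully interleaved. Its log2FC was -0.03 (SE 0.18, adjusted p = 0.941, edgeR), and the sign changed between alternative fits.

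**Figure D1:**
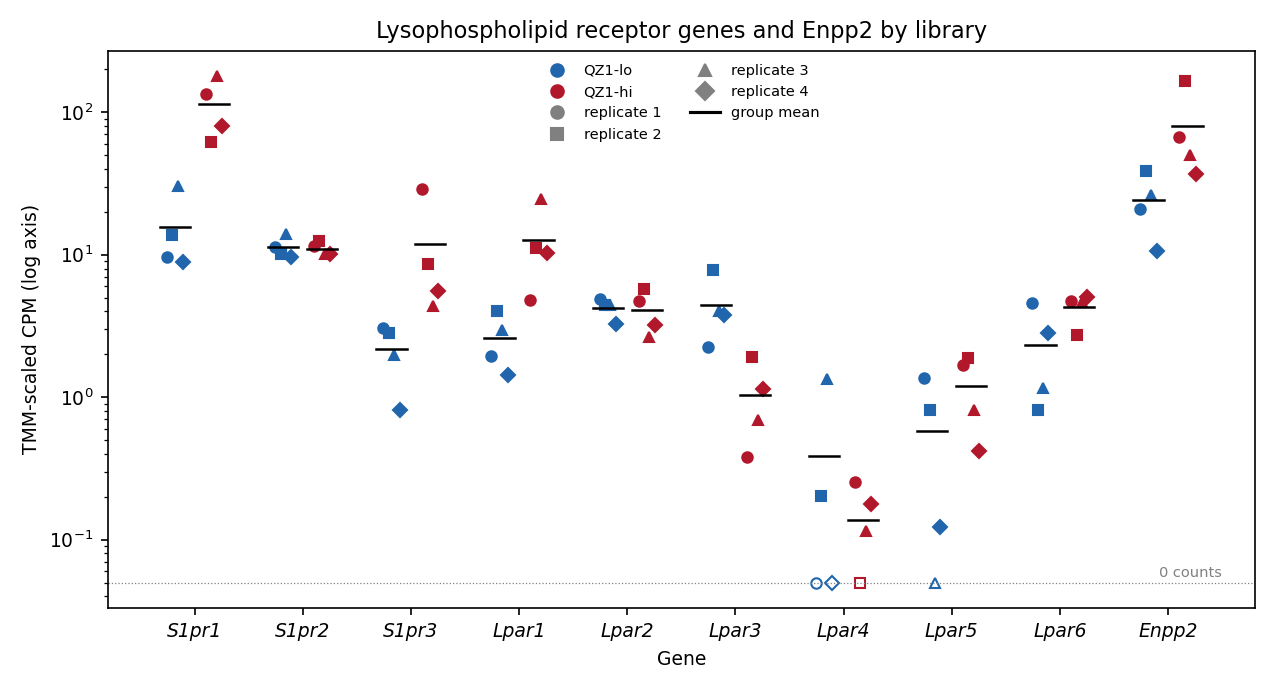
TMM-scaled CPM (log axis) of the 10 genes in the 4 QZ1-lo (blue) and 4 QZ1-hi (red) libraries, with the marker shape giving the replicate, a black line the group mean, and open symbols at the dotted line libraries with 0 counts. S1pr1, S1pr3 and Lpar1 were higher without overlap, Lpar3 was lower without overlap, and S1pr2 and Lpar2 were interleaved.

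The EDG-type LPA receptors moved in opposite directions. Lpar1 (Entrez Gene 14745, chr4:58435255-58553898, minus strand) had 4.79, 11.2, 24.5 and 10.2 CPM in QZ1-hi and 1.94, 4.03, 2.97 and 1.43 CPM in QZ1-lo. All QZ1-hi libraries were above all QZ1-lo libraries, the closest being QZ1-hi replicate 1 and QZ1-lo replicate 2. Its log2FC was 2.29 (SE 0.48, adjusted p = 0.00663, edgeR). The highest Lpar1 level fell in the library with the highest fibroblast signal, QZ1-hi replicate 3, whose 9 fibroblast markers summed to 3397 CPM. That library also had the highest endothelial, lymphatic, pericyte and platelet sums (3142, 205, 214 and 37.9 CPM). In QZ1-lo, Lpar1 was highest in replicate 2 and the fibroblast sum in replicate 3. The fibroblast markers ranged from 1724 to 3397 CPM in QZ1-hi and from 43.9 to 377 CPM in QZ1-lo, and their part in the difference was not tested.

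Lpar3 (Entrez Gene 65086, chr3:146220963-146286186, plus strand) was the member that fell. It had 0.381, 1.93, 0.694 and 1.13 CPM in QZ1-hi, on counts of 9 to 39 reads, and 2.27, 7.77, 4.02 and 3.77 CPM in QZ1-lo. No QZ1-hi library reached the lowest of QZ1-lo, although QZ1-hi replicate 2 and QZ1-lo replicate 1 lay close together. The log2FC was -2.104 (SE 0.55, adjusted p = 0.0217, edgeR). The call was lost with limma-voom (adjusted p = 0.0651) and without QZ1-hi replicate 3 (adjusted p = 0.0585, edgeR) or QZ1-lo replicate 2 (adjusted p = 0.0848, edgeR). The 5 ciliated markers moved the same way, from 318 to 600 CPM in QZ1-lo down to 67.6 to 197 CPM in QZ1-hi, as did the 10 epithelial markers, from 2292 to 2959 CPM down to 852 to 1324 CPM. Their part in the Lpar3 difference was not tested.

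Lpar2 (Entrez Gene 53978, chr8:69822429-69831102, plus strand), the remaining EDG-type LPA receptor, was not called. It had 4.75, 5.73, 2.66 and 3.22 CPM in QZ1-hi and 4.86, 4.43, 4.45 and 3.27 CPM in QZ1-lo, which overlapped. Its log2FC was -0.06 (SE 0.31, adjusted p = 0.936, edgeR), with a sign that changed when single libraries were left out.

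None of the P2Y-like LPA receptors passed the test. Lpar6 (Entrez Gene 67168, chr14:73237895-73243294, plus strand) had 4.75, 2.72, 4.68 and 5.07 CPM in QZ1-hi and 4.56, 0.814, 1.16 and 2.82 CPM in QZ1-lo. QZ1-lo replicate 1 reached the QZ1-hi level, and the log2FC was 0.87 (SE 0.51, adjusted p = 0.302, edgeR). Lpar6 is a single-exon gene that lies inside Rb1 on the opposite strand, and 408 of its 5400 annotated bases overlap Rb1 exons. The strand setting of the counting is not given in the sources used here, so reads of the pair may not be separated. Rb1, the retinoblastoma tumor suppressor, had 24.6 ± 2.64 and 21.8 ± 3.46 CPM (QZ1-hi and QZ1-lo, SD, n = 4).

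Lpar5 (Entrez Gene 381810, chr6:125067920-125082472, plus strand), a receptor known in platelets and immune cells, was a gene of few counts, at most 46 in a library. It had 1.69, 1.88, 0.809 and 0.417 CPM in QZ1-hi and 1.37, 0.814, 0 and 0.123 CPM in QZ1-lo, where QZ1-lo replicate 3 had 0 counts, which allows up to 0.109 CPM. Its log2FC was 1.04 with an SE of 1.03 (adjusted p = 0.571, edgeR), and the populations overlapped. Lpar4 (Entrez Gene 78134, chrX:106920625-106933900, plus strand), the member that was not tested, had 6, 0, 2 and 3 counts in QZ1-hi and 0, 5, 37 and 0 counts in QZ1-lo. All but 5 of its 42 counts in QZ1-lo came from replicate 3, at 1.34 CPM. The populations overlapped, and the mean CPM differed with a two-sided p of 0.8 (exact permutation test).

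Enpp2 (Entrez Gene 18606, chr15:54838901-54952892, minus strand), which codes for the LPA-producing enzyme itself, was higher on average in QZ1-hi but spread widely. It had 66.6, 166, 49.7 and 36.8 CPM in QZ1-hi and 21.1, 39.0, 26.5 and 10.6 CPM in QZ1-lo. The populations overlapped, since QZ1-hi replicate 4 lay below QZ1-lo replicate 2. The log2FC was 1.72 (SE 0.48, adjusted p = 0.0277, edgeR). Of its annotated exonic bases, 345 overlap Gm26684 on the opposite strand. Without QZ1-hi replicate 2 it was 1.05 and the call was lost (adjusted p = 0.0805, edgeR). The call was also lost without QZ1-lo replicate 1, 3 or 4 (adjusted p = 0.0716, 0.0553 and 0.0568, edgeR) and with robust shrinkage (adjusted p = 0.0897, edgeR). QZ1-hi replicate 2 was the library with the highest mesothelial signal, where Msln, Upk3b, Wt1 and Lrrn4 summed to 268 CPM, against 38.4 to 66.1 CPM in the other QZ1-hi libraries and 5.93 to 36.5 CPM in QZ1-lo. The part of these cells in the Enpp2 level was not tested.

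In total, 4 of the 9 members tested were called higher and 1 lower, where over all genes tested 9.88% were called higher and 8.21% lower (18.1% in either direction). The members without overlap numbered 4 of 9, against 22.6% of all genes tested. These counts describe the members that passed the filter, Lpar3 through its QZ1-lo libraries, and are no test of the list. The median log2FC of the 9 members was 1.04 and that of all genes tested 0.02. Scaling by library size alone moved the latter to -0.44 and left all 5 calls and the directions of the 9 members in place. Lpar6 was then at 0.35 and S1pr2 and Lpar2 at -0.504 and -0.52, close to that shift.

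**Figure D2:**
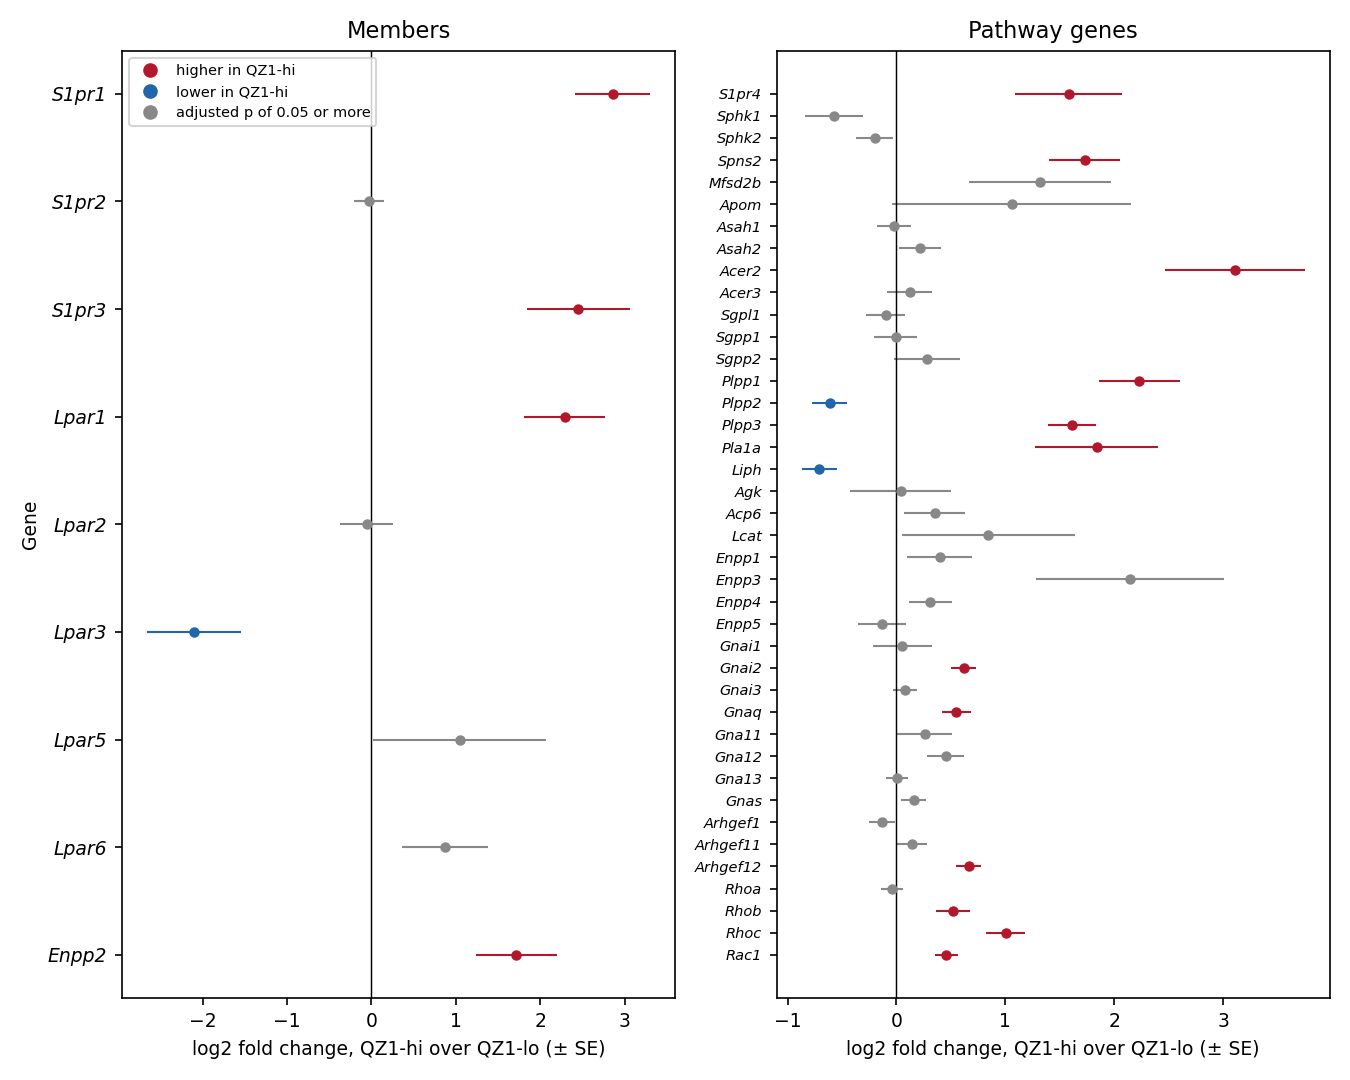
Log2 fold changes of QZ1-hi over QZ1-lo with their SE (horizontal bars) for the 9 members tested (left) and the 40 pathway genes tested (right), in red or blue where the adjusted p was under 0.05 (edgeR). S1pr1, S1pr3, Lpar1 and Enpp2 lie to the right of 0 and Lpar3 to the left, with S1pr2 and Lpar2 at about 0.

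Levels were set against each other per kilobase of exon, using GENCODE M21 exons of transcripts linked to RefSeq. In QZ1-hi, S1pr1 came first with 37.3 ± 17.6 CPM per kb and Enpp2 second with 23.8 ± 17.5 CPM per kb (SD, n = 4 each), and their ranges overlapped. Both stood clear of the third, Lpar1, at 3.37 ± 2.22 CPM per kb (SD, n = 4). Lpar1, S1pr3 (2.66 ± 2.59 CPM per kb) and S1pr2 (1.73 ± 0.177 CPM per kb) did not separate from one another, and all of Lpar6, Lpar5, Lpar2 and Lpar3 lay between 0.155 and 1.24 CPM per kb in every QZ1-hi library. In QZ1-lo, Enpp2 (7.26 ± 3.54 CPM per kb) and S1pr1 (5.15 ± 3.33 CPM per kb) again came first and overlapped, followed by Lpar3 (1.81 ± 0.950 CPM per kb), which overlapped S1pr1, and S1pr2 (1.76 ± 0.311 CPM per kb). S1pr2 was clear of the next gene, Lpar2, and from Lpar2 down each gene overlapped the next. Lpar3 thus stood at place 3 of the 10 genes in QZ1-lo and at place 9 in QZ1-hi. Lpar4 was last in both. The order of close genes depends on the exon models, which for S1pr2 span 6.39 kb when linked to RefSeq and 7.97 kb over all GENCODE transcripts.

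The makeup of each receptor family was then computed within each library, which no scaling between libraries can change. S1pr1 made up 84.1, 84.0, 95.8 and 90.3% of the per-kilobase signal of the S1P receptors S1pr1 to S1pr3 in QZ1-hi and 56.3, 67.1, 79.2 and 63.3% in QZ1-lo. The difference in means was 22.1 percentage points, with no overlap (two-sided p = 0.0286 by exact permutation, the smallest that 4 against 4 libraries allow, adjusted p = 0.04 over 7 such comparisons). With S1pr1 already called higher and S1pr2 at a log2FC of -0.03, this share restates the S1pr1 difference and is no separate support for it. The share of S1pr2 was 26.3% ± 7.24 (SD, n = 4) in QZ1-lo and 4.88% ± 2.43 (SD, n = 4) in QZ1-hi, while S1pr3 held 7.25% ± 4.19 and 6.56% ± 4.71 (SD, n = 4 each).

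Among the LPA receptors, Lpar1 made up 29.5, 45.8, 74.9 and 54.5% of the signal in QZ1-hi and 12.8, 18.7, 21.2 and 12.3% in QZ1-lo. The means differed by 34.9 percentage points (exact permutation test, two-sided p = 0.0286, adjusted p = 0.04). This share is built from the Lpar1 and Lpar3 levels already called in opposite directions and is no separate support for those calls. In QZ1-lo, Lpar3 held the largest mean share, 42.7% ± 14.1 (SD, n = 4), against 7.005% ± 4.31 (SD, n = 4) in QZ1-hi. Lpar2 had 18.6% ± 3.52 in QZ1-lo and 12.8% ± 5.95 in QZ1-hi (SD, n = 4 each). The P2Y-like receptors together made up 29.0% ± 13.2 in QZ1-hi and 22.5% ± 14.2 in QZ1-lo (SD, n = 4 each), which overlapped (exact permutation test, two-sided p = 0.486, adjusted p = 0.486).

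**Figure D3:**
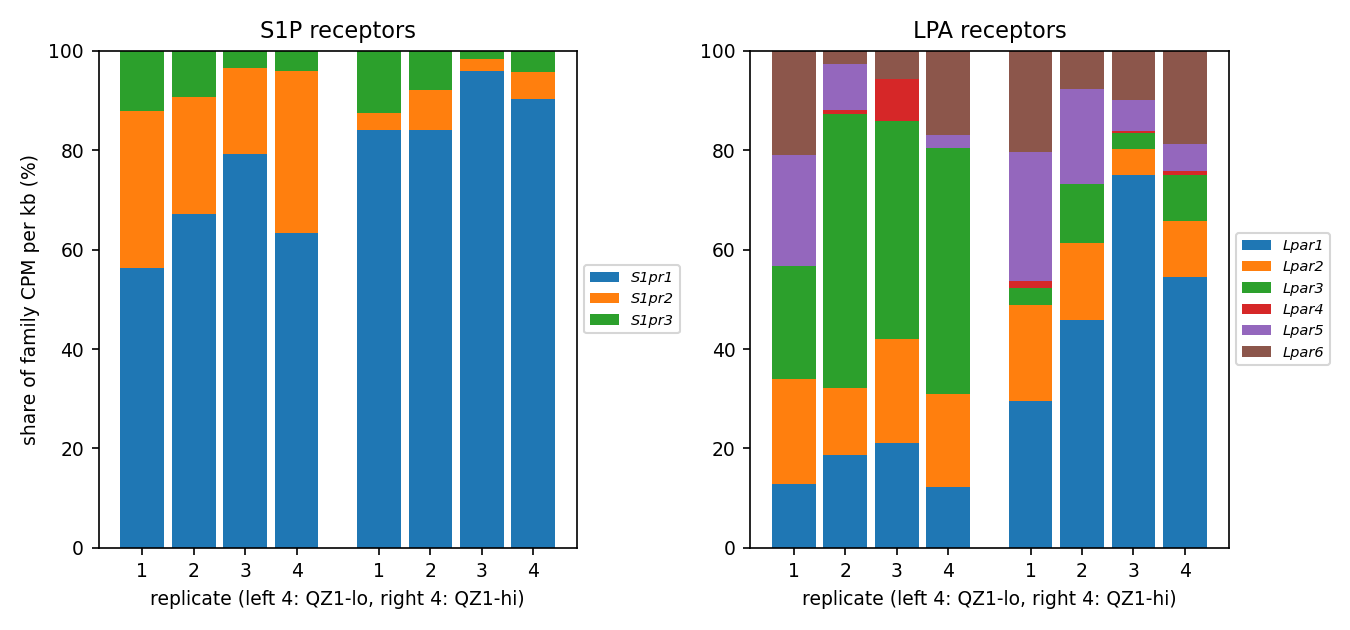
Share of each receptor gene in the summed CPM per kb of its family (0 to 100%) in each library, for the S1P receptors S1pr1 to S1pr3 (left) and the LPA receptors (right). In all 4 QZ1-hi libraries S1pr1 held over 84.0% of the summed S1pr1 to S1pr3 signal, and the Lpar3 share, 42.7% on average in QZ1-lo, was 7.005% in QZ1-hi.

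To set receptor levels against the cells known to carry them, the log2 CPM of 4 receptor genes was compared with the mean log2 CPM of a marker list in the same library. S1pr1 relative to the 12 endothelial markers was -0.19, -0.55, -0.18 and -0.12 in QZ1-hi and 0.09, 0.14, 0.18 and 0.36 in QZ1-lo. S1pr1 was thus higher in QZ1-hi by less than the endothelial list on average, the ratio differing by -0.45 on the log2 scale (exact permutation test, two-sided p = 0.0286, adjusted p = 0.04). The list itself was uneven. Esam and Kdr had log2FC values of 1.73 and 2.54, below the 2.86 of S1pr1. The rest of the list lay above S1pr1, up to 3.79 for Tek. Lpar1 relative to the fibroblast markers was -3.27 ± 0.39 in QZ1-hi and -1.58 ± 0.83 in QZ1-lo (SD, n = 4 each), a difference of -1.69 without overlap (exact permutation test, two-sided p = 0.0286, adjusted p = 0.04). With Lpar1 at a log2FC of 2.29 and the list at a median of 3.38, this difference restates the larger rise of the list. Lpar2 relative to the 10 epithelial markers, all of which fell, was -4.37 ± 0.24 in QZ1-hi and -5.64 ± 0.16 in QZ1-lo (SD, n = 4 each). That difference was 1.27 (exact permutation test, two-sided p = 0.0286, adjusted p = 0.04). With Lpar2 at a log2FC of -0.06 and the list at a median of -1.28, this difference restates the fall of the list. It depended on the list: against the 6 alveolar type 2 markers, chosen after the data were seen and with 2 called higher, the difference was -0.57 (exact permutation test, two-sided p = 0.0857). S1pr3 relative to the pericyte markers was 0.07 ± 1.34 in QZ1-hi and 0.59 ± 0.65 in QZ1-lo (SD, n = 4 each), and the groups overlapped (exact permutation test, two-sided p = 0.486, adjusted p = 0.486).

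**Figure D4:**
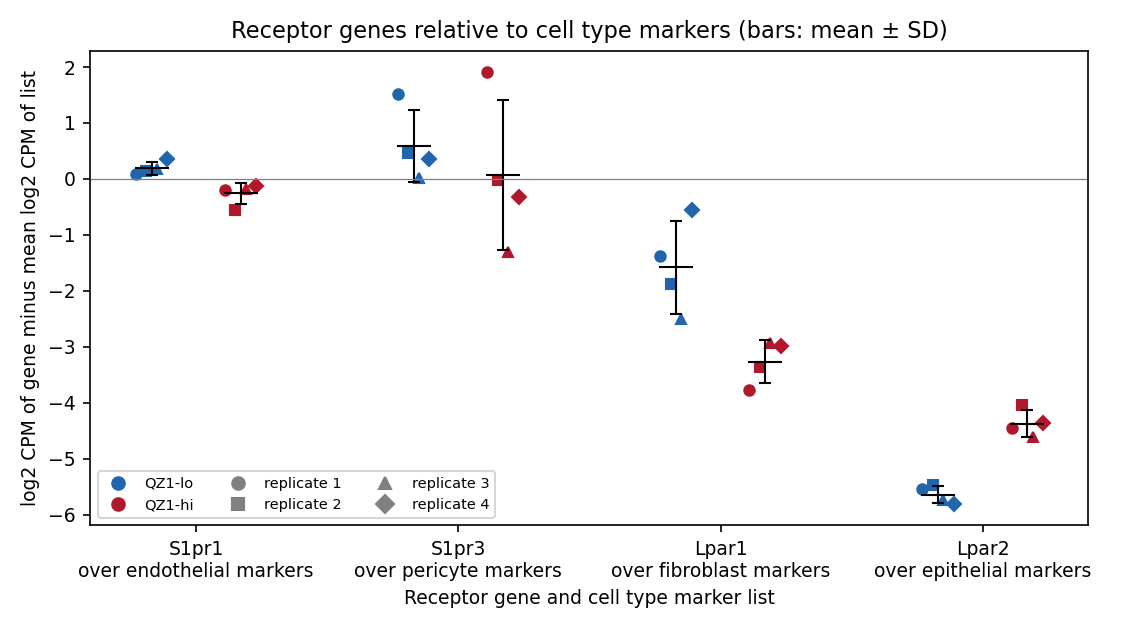
Log2 CPM of a receptor gene minus the mean log2 CPM of a cell type marker list in each QZ1-lo (blue) and QZ1-hi (red) library, with the mean and SD of 4 libraries as black bars. The populations separate for S1pr1 over endothelial, Lpar1 over fibroblast and Lpar2 over epithelial markers (differences of -0.45, -1.69 and 1.27, the last turning to -0.57 against alveolar type 2 markers) and overlap for S1pr3 over pericyte markers.

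Of 45 other genes of S1P and LPA metabolism and receptor signaling, 40 were tested, of which 12 were called higher and 2 lower, with a median log2FC of 0.29, where 9.88% and 8.21% of all genes tested were called. With library size alone these counts were 4 higher and 3 lower, so that the split between directions depended on scaling. Without QZ1-hi replicate 3, 7 were higher, and without QZ1-hi replicate 4, QZ1-lo replicate 1 or QZ1-lo replicate 2, 1 was lower, Liph.

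On the S1P side, the exporter and a ceramidase gene rose and the kinases and lyase did not pass. Spns2, the S1P transporter of endothelial cells, had 27.6 ± 7.27 CPM in QZ1-hi and 8.31 ± 4.08 CPM in QZ1-lo (SD, n = 4 each), with a log2FC of 1.73 (SE 0.33, adjusted p = 0.00363, edgeR). Acer2, a ceramidase that releases the sphingosine from which S1P is made, had 69.7 ± 35.6 and 8.06 ± 8.86 CPM (SD, n = 4 each), a log2FC of 3.11 (SE 0.64, adjusted p = 0.00599, edgeR). These 2 of the 9 genes tested for S1P production and export were called, a share near the 18.1% of all genes tested. The kinase genes Sphk1 and Sphk2 had log2FC values of -0.58 (SE 0.27) and -0.20 (SE 0.17), and Mfsd2b, the exporter of red cells and platelets, 1.32 (SE 0.65). Of the genes for S1P breakdown, Sgpl1, Sgpp1 and Sgpp2, none of the 3 passed, with values between -0.10 and 0.28. S1pr4, a receptor known from lymphocytes, had 2.76 ± 0.692 CPM in QZ1-hi and 0.915 ± 0.504 CPM in QZ1-lo (SD, n = 4 each) and was called higher (adjusted p = 0.0469, edgeR). The leukocyte list, none of whose 10 tested markers was called, summed to 3002 to 6428 CPM in QZ1-hi and 2167 to 4267 CPM in QZ1-lo. Lyz2 was the largest part of these sums, with means of 3600 and 2534 CPM. The platelet list summed to 18.1 to 37.9 and 4.38 to 9.01 CPM, with 4 of 5 markers higher, and the part of either in the S1pr4 difference was not tested. S1pr5 was not tested, at 9 counts over QZ1-hi and 53 over QZ1-lo.

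On the LPA side, all 3 lipid phosphate phosphatase genes were called, in both directions, where 18.1% of all genes tested were called. Plpp1 had 30.5, 22.4, 41.4 and 20.4 CPM in QZ1-hi and 5.99, 2.77, 10.7 and 4.91 CPM in QZ1-lo, with a log2FC of 2.23 (SE 0.37, adjusted p = 0.00185, edgeR). Plpp3, which degrades extracellular LPA and is known in vessel walls, had 74.4 ± 24.1 and 24.3 ± 4.71 CPM (SD, n = 4 each), a log2FC of 1.61 (SE 0.22, adjusted p = 0.000653, edgeR). Plpp2 fell from 18.0 ± 2.62 to 11.8 ± 0.590 CPM (SD, n = 4 each), by 0.61 on the log2 scale (SE 0.16, adjusted p = 0.0206, edgeR). The phospholipase genes split likewise: Pla1a, which acts on phosphatidylserine, rose by 1.84 on the log2 scale (SE 0.56, adjusted p = 0.044, edgeR), and Liph, which makes LPA from phosphatidic acid, fell by 0.71 (SE 0.16, adjusted p = 0.0101, edgeR). None of the 4 relatives of Enpp2 tested was called, which at that share of all genes says little. Enpp3 had the largest value of them, 2.15 (SE 0.86, adjusted p = 0.12, edgeR), and Enpp1, Enpp4 and Enpp5 lay between -0.13 and 0.395.

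Among the signaling genes, 2 of 8 G protein alpha subunits were called higher and none lower, where 18.1% of all genes tested were called in either direction. Gnai2, a Gi subunit, had a log2FC of 0.62 (SE 0.11) and Gnaq, a Gq subunit, of 0.55 (SE 0.13). Gna12 and Gna13 did not pass, at 0.45 (SE 0.17) and 0.0026 (SE 0.10). Neither call held with library size alone.

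The genes with the pattern most like that of a member were found by the root mean square difference of mean-centered log2 CPM over the 8 libraries, among 10440 genes with a mean of at least 5 CPM. Closest to S1pr1 were Arap3, Rasip1 and Kit (differences of 0.16, 0.17 and 0.17). Arap3 had 96.1 ± 38.2 CPM in QZ1-hi and 14.2 ± 8.99 CPM in QZ1-lo (SD, n = 4 each). Closest to Lpar3 were Tmc5, 1700007K13Rik and Cyp2f2 (0.204, 0.25 and 0.25), the last a cytochrome P450 gene of club cells with 86.4 ± 53.0 and 321 ± 138 CPM (SD, n = 4 each). Closest to Enpp2 were Igfbp5, Pkdcc and Cdh11 (0.27, 0.33 and 0.35), and Igfbp5, an IGF-binding protein gene, had 525 ± 435 CPM in QZ1-hi and 162 ± 70.5 CPM in QZ1-lo (SD, n = 4 each). All of these points share their libraries and the sorting gate, and the difference between the populations is part of each measure.

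Promoter sequences of RefSeq on GRCm38.p6 were matched for 8 of the 10 genes, and S1pr1 and Enpp2 had no entry. For Lpar1 the most upstream start of that table was taken, which lies inside the GENCODE span given above. The 250 bases before the start are shown for 3 called receptors, 2 that rose and the one that fell, with capitals marking the GC box (GGGCGG or CCGCCC) and the CACCC box (CACCC or GGGTG), which do not overlap each other here.
S1pr3, chr13:51408368-51408617, plus strand: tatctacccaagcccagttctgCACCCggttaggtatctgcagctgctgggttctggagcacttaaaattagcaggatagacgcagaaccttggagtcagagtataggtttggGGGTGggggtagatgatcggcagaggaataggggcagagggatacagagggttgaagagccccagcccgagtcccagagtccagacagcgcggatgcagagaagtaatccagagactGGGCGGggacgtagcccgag
Lpar1, chr4:58553492-58553741, minus strand: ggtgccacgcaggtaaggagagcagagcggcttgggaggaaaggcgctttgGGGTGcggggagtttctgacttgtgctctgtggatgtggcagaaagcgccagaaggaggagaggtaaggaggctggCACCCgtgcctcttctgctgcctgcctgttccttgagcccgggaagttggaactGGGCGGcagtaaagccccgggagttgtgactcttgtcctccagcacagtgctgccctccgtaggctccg
Lpar3, chr3:146220711-146220960, plus strand: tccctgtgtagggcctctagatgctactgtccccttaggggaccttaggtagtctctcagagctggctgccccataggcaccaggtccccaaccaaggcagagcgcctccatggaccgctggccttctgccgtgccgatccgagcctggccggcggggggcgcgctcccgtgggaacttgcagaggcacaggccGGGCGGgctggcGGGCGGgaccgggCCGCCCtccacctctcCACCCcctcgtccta
A GC box occurred once before S1pr3 and Lpar1 and 3 times before Lpar3, and in 32.7% of the 32851 promoter windows of this length. The CACCC box occurred 2, 2 and 1 times, and in 52.0% of all windows. The ETS core CCGGAA or TTCCGG, in 12.0% of windows, was not found in these 3. Such matches are descriptions of the letters only.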

How the data were processed

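Bulk RNA-seq of 4 QZ1-hi and 4 QZ1-lo libraries was analysed. The authors prepared stranded total RNA libraries, counted reads per gene with Rsubread and deposited raw counts, without normalization, by Entrez Gene identifier. The submitters' processing notes name mm10 and DESeq2, while the aligner, annotation and strand setting are not given in the sources used here. Symbols were matched for 25275 of 27179 identifiers through RefSeq.

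Counts were TMM-scaled and tested in R 4.3.3 with edgeR 4.0.16 (quasi-likelihood test, filterByExpr with a minimum count of 10 and total of 15, 15583 genes, Benjamini-Hochberg adjustment, threshold 0.05). SEs were derived from the fold change and its F statistic (absolute log2 value over the root of F). Log2 CPM used a prior count of 2. Single values were compared by exact permutation over 70 assignments (scipy 1.17.1). The procedures were tested on simulated data. Alternatives were DESeq2 1.42.0, limma 3.58.1 (voom), other scalings and filters, robust shrinkage, removal of 48 mitochondrial and ribosomal RNA genes (34.0 to 65.6% of counts), and leaving out each library. Members and lists were chosen with earlier results of these data known. Named genes were the 10 members, Rb1, all listed pathway and marker genes, and the 3 genes closest in pattern to the called member with the smallest p in each direction and to Enpp2. Replicate numbers follow accession order, and no label says that equal numbers share a mouse. Some marker sums ranked alike by number in both populations. The red cell sums were 130.5, 447, 376 and 1006 CPM in QZ1-hi and 282, 1587, 961 and 3097 CPM in QZ1-lo. The epithelial sums did not rank alike. Whether equal numbers share a mouse was not tested, and all tests treated the libraries as unpaired. P-values set the difference between the populations against the spread between these libraries, which are not known to come from separate mice. The other signaling genes of the pathway list are counted in its totals but not reported here by group.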

Additional observations from a re-analysis of the deposited data

Results flagged for a closer look

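Of 34 groups of 4 libraries examined (10 genes and 7 within-library measures in each population), 4 held a library whose gap to its nearest neighbor took up more of the group's range than Dixon's 95% limit, where chance gives about 1 in 20. S1pr3 in QZ1-hi replicate 1 was at 29.03 CPM, with a gap ratio of 0.83. Lpar4 in QZ1-lo replicate 3 was at 1.34 CPM, with a gap ratio of 0.848, on 37 counts. Lpar6 in QZ1-hi replicate 2 was the lowest of its group at 2.72 CPM, with a gap ratio of 0.837. S1pr1 relative to endothelial markers was lowest in QZ1-hi replicate 2 at -0.55, with a gap ratio of 0.83, and without this library the difference between the populations was -0.36.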

How the results depend on the processing

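S1pr1 and Lpar1 kept their direction and call in all 8 alternative settings and in all 8 fits that left out 1 library, with log2 fold changes of 2.46 to 3.41 and 1.73 to 2.58. The number of members called higher was 2 at an adjusted p under 0.01 and otherwise 3 or 4, from 3 to 4 when single libraries were left out. The number called lower was 0 with limma-voom, with at least 10 counts in every library (which removed Lpar3 from the test) and at an adjusted p under 0.01, and from 0 to 1 when single libraries were left out. Signs reversed for S1pr2 with limma-voom (0.043) and without QZ1-hi replicate 4 or QZ1-lo replicate 3 (-0.113 to 0.093 over all libraries left out in turn), and for Lpar2 without QZ1-hi replicate 3 or 4 or QZ1-lo replicate 1 (-0.282 to 0.078). The pathway genes called higher were 4 with library size only and 7 to 11 when single libraries were left out, and those called lower 1 to 3. The cause was not tested. Of the within-library measures, 5 passed with 4 against 4 libraries. Without single libraries they kept their direction, at 18.7 to 26.3 percentage points for the S1pr1 share, 27.02 to 42.2 for the Lpar1 share, -0.498 to -0.36 for S1pr1 over endothelial, -1.996 to -1.35 for Lpar1 over fibroblast and 1.16 to 1.35 for Lpar2 over epithelial markers, all at p = 0.0571 (exact permutation test), the smallest that 3 against 4 allow. Taking all GENCODE exons for the length, chosen after the data were seen, changed no call, whereas Lpar2 over alveolar type 2 in place of epithelial markers, also chosen then, reversed to -0.57. No paired analysis was possible because the labels give no number that links libraries of different populations. Depth limits Lpar4 most, with 3 counts or fewer in 5 of 8 libraries.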
